A study of Mus musculus with 12 samples.

Results

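The clustered protocadherin genes were examined in mouse olfactory mucosa, where the olfactory sensory neurons sit. They were taken as every gene whose symbol begins with Pcdha, Pcdhb or Pcdhg followed by an isoform name, which gave 57 of the 44,930 genes in the deposited table. There were 12 alpha genes, 22 beta genes, 11 gamma A genes, 7 gamma B genes and 5 C-type genes (Pcdhac1 and Pcdhac2 at the end of the alpha cluster, and Pcdhgc3, Pcdhgc4 and Pcdhgc5 at the end of the gamma cluster). Pcdhga10 was not analysed here. All 57 lie on the plus strand of mouse chromosome 18 between 36,930,184 and 37,841,873 (GRCm38, GENCODE M21), a span of 912 kb.

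The samples came from male mice aged 30 postnatal days on a mixed 129S6;C57BL/6J background. There were 6 wildtype animals and 6 animals with the deletion named eB, which removes 1,155 bp of a class I odorant receptor enhancer on chromosome 7 (102,847,692 to 102,848,846; read here as GRCm38, the build named for the processing). The deletion is thus on another chromosome than the protocadherins. Whether the deletion is on 1 or both alleles is not given in the sources used here, nor are litters. Total RNA depleted of ribosomal RNA had been sequenced with a stranded kit. In whole tissue, fewer cells of a type and less RNA per cell cannot be told apart.

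Clustered protocadherins are adhesion proteins of the neuronal surface. Each neuron switches on a small set of their promoters, largely by chance, and the resulting mix of proteins lets a neuron tell its own branches from those of other neurons. In the alpha and gamma clusters each isoform has its own large first exon, which is spliced to constant exons shared by the whole cluster, whereas each beta gene carries its coding sequence in 1 exon. Promoter choice depends on the looping proteins CTCF and cohesin and on distant enhancers, while the silencing factor SMCHD1 and DNA methylation keep unused promoters off. In olfactory sensory neurons, a mixed set of isoforms is needed for axons to reach and fill their glomeruli properly.

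The libraries held 13,152,662 (wildtype 2) to 23,059,835 (eB deletion 3) reads on genes. Clustered protocadherins took 0.0665% to 0.0796% of these, or 8,746 to 17,614 reads. The predicted gene Gm10800 took 11.02% of the reads of wildtype 2, a library that stands apart in this respect. Its share was 2.38% for eB deletion 4, 0.554% for eB deletion 1, 0.329% for wildtype 5 and under 0.1% elsewhere. The summed level of 6 markers of mature olfactory sensory neurons ranged from 140,024 to 168,962 normalized counts in wildtype and from 145,511 to 181,786 in deletion animals. All 9 listed markers of olfactory bulb and other brain cells had a row. Their sum ranged from 11,368 to 15,809 in wildtype and from 12,339 to 14,471 in deletion animals. Most of it came from Aqp4 (11,070 to 15,403 over the 12 libraries), while Gfap ranged from 9.52 to 41.8. The sum thus mostly follows Aqp4 and does not by itself measure brain RNA. Slc32a1, the vesicular transporter of inhibitory neurons, was at 0 in 10 of the 12 libraries and at 0.93 in wildtype 1 and 2.89 in wildtype 2. Of the enzymes that make the inhibitory transmitter, Gad2 ranged from 76.5 to 134 and Gad1 from 0 to 43.3.

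Levels are given as normalized counts, which are gene reads divided by the size factor of the library. To compare genes with each other, they were also divided by the kilobases of exon that no other gene shares on the same strand, since the constant exons cannot be assigned to 1 isoform. By this measure 35 of the 57 genes lay between 20 and 70 normalized counts per kb in wildtype, and the median was 30.3. Only 1 gene stood far above the others.

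That gene was Pcdhb1, the first gene of the beta cluster and one of the few isoforms whose promoter lacks the conserved element shared by most of the others. Its wildtype values ran from 5,466 to 6,890 normalized counts with a median of 6,138, and its values in deletion animals from 5,847 to 6,774 with a median of 6,339. It was the highest clustered protocadherin per kb in all 12 animals. In wildtype its level was 2,358 ± 193 per kb (SD, n = 6), 20.04 times that of the next gene. It made up 60.4% ± 2.2 of the beta counts and 46.1% ± 2.2 of all clustered protocadherin counts in wildtype, and 62.0% ± 2.1 and 47.4% ± 1.5 in deletion animals (± SD, 6 animals each).

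The order below Pcdhb1 was close. Pcdhb17 had 118 ± 9.35 and Pcdhb16 110 ± 10.6 normalized counts per kb in wildtype (SD, n = 6), and Pcdhb17 was the higher in 4 of 6 animals, so that the order of these neighbours does not exceed their spread. Pcdhac2, the isoform that serotonergic axons need to spread evenly over their territory, followed at 97.1 ± 3.56, above Pcdhb7 (85.4 ± 23.4) in 5 of 6 animals. Among the remaining beta genes, levels fell to 8.13 ± 1.68 per kb for Pcdhb2 and 7.04 ± 1.83 for Pcdhb12.

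The alpha genes were led by Pcdha9, at 67.4 ± 5.57 normalized counts per kb in wildtype, and by Pcdha3 at 51.5 ± 6.04 (SD, n = 6). The lowest per kb of unshared exon were Pcdha8 at 11.4 ± 2.72 and Pcdha11 at 2.03 ± 0.69. Alpha proteins depend on other isoforms to reach the cell surface. Pcdha4 has only 494 bases of unshared exon, because it overlaps a readthrough gene, and its level of 22.8 ± 14.2 per kb is therefore uncertain. Per kb of exon shared with no other gene in the deposited table, it had 3.89 and lay below Pcdha8.

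The gamma A and gamma B genes spanned a narrower range than the beta genes. Pcdhga3 (59.0 ± 6.68 normalized counts per kb) and Pcdhga6 (44.2 ± 3.04) led gamma A, and Pcdhga11 (13.1 ± 4.00) and Pcdhga12 (8.79 ± 1.84) were lowest. In gamma B the highest levels were those of Pcdhgb6 (60.7 ± 11.1) and Pcdhgb1 (50.02 ± 3.70), and the lowest those of Pcdhgb5 (24.4 ± 3.84) and Pcdhgb7 (16.9 ± 1.62; all in wildtype, SD, n = 6). The highest gamma A gene was 6.71 times the lowest and the highest gamma B gene 3.60 times the lowest. The beta genes spanned 335-fold, from Pcdhb12 at 7.04 to Pcdhb1 at 2,358, but the next beta gene, Pcdhb17, was at 118. The wide beta span thus rests largely on Pcdhb1. The alpha genes spanned 33.2-fold.

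The C-type isoforms, whose promoters are regulated apart from the others and which in many neurons are expressed without random choice, were unequal. After Pcdhac2 came Pcdhgc3 at 59.7 ± 6.64 and Pcdhac1 at 45.4 ± 5.84 normalized counts per kb in wildtype. Pcdhgc4, the gamma isoform that neurons need to survive, had 8.49 ± 1.21, and Pcdhgc5 had 4.21 ± 2.87 (SD, n = 6). Of the isoforms that lack the conserved promoter element, then, Pcdhb1 and Pcdhac2 were among the highest of all and Pcdhgc4 and Pcdhgc5 among the 6 genes under 10 per kb.

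**Figure D1:**
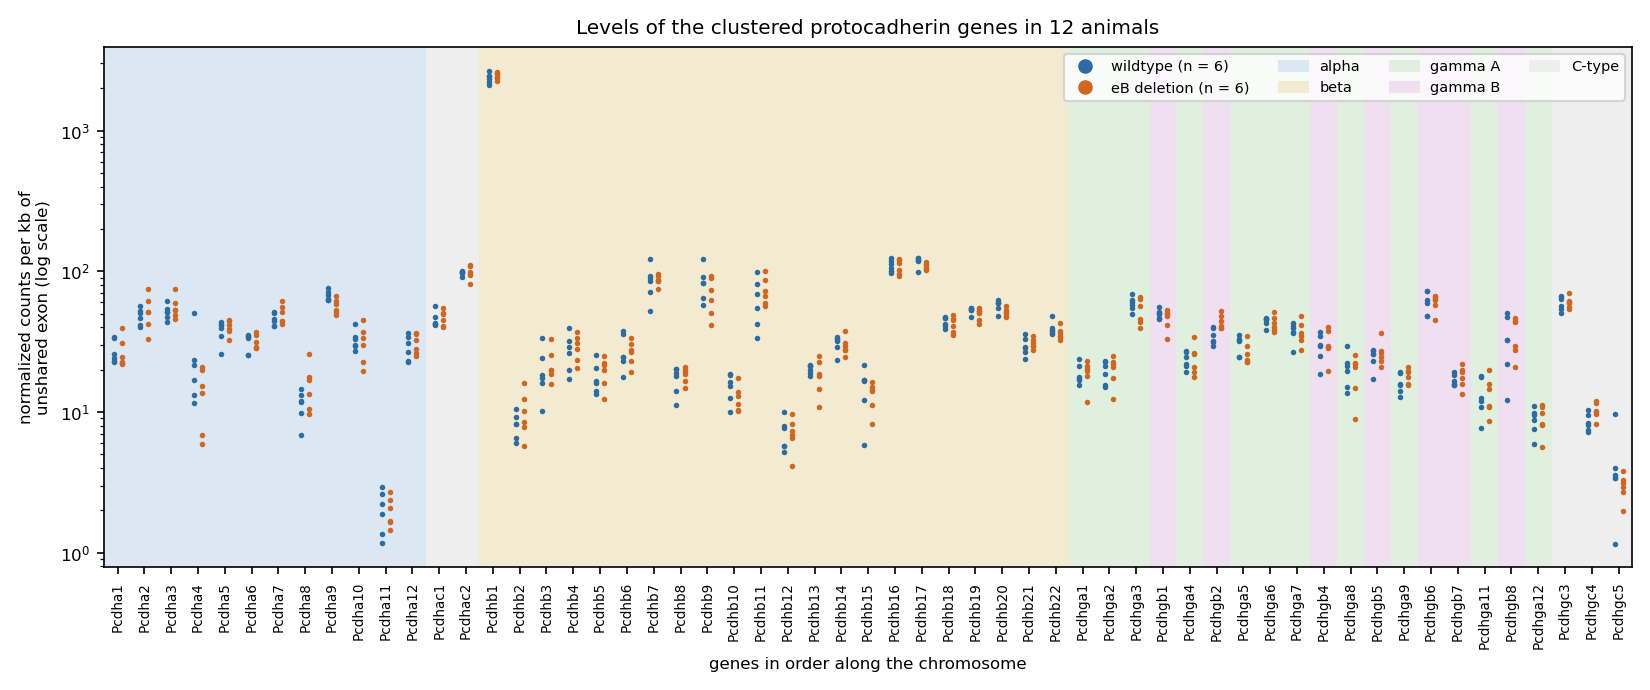
Normalized counts per kb of unshared exon (log scale) for the 57 clustered protocadherin genes in chromosomal order, with 1 point per animal, wildtype in blue and eB deletion in orange, and shading by family. Pcdhb1 lies above every other gene in all 12 animals, and the points of both genotypes overlap for each tested gene.

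The reads of similar isoforms are hard to separate. Of all windows of 50 bases in a gene's unshared exon, a median of 3.60% also occurred in a transcript of another gene, 15 of the 57 genes exceeded 10%, and the highest was Pcdha6 at 29.2%. For 10 genes no window was shared. How reads that fit several genes were counted is not given in the sources used here, so single levels of close isoforms are uncertain. The antisense gene RP23-6P18.2 within the clusters had 37.9 ± 4.11 normalized counts in the wildtype and 44.0 ± 10.4 in the deletion group (± SD, 6 animals each). The strand setting of the counting is not given either.

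The second question was whether the eB deletion changed these levels. The sums over each cluster were close in both genotypes. The alpha cluster with its C-type genes summed to 1,353 ± 83.0 normalized counts in the wildtype and 1,377 ± 98.1 in the deletion group, the beta cluster to 10,099 ± 654 and 10,227 ± 355, and the gamma cluster with its C-type genes to 1,766 ± 106 and 1,784 ± 148 (± SD, 6 animals each). In each cluster the difference was smaller than the SD within either genotype, and the groups overlapped. Without Pcdhb1, the beta genes summed to 3,998 ± 313 in wildtype and 3,885 ± 212 in deletion animals.

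**Figure D2:**
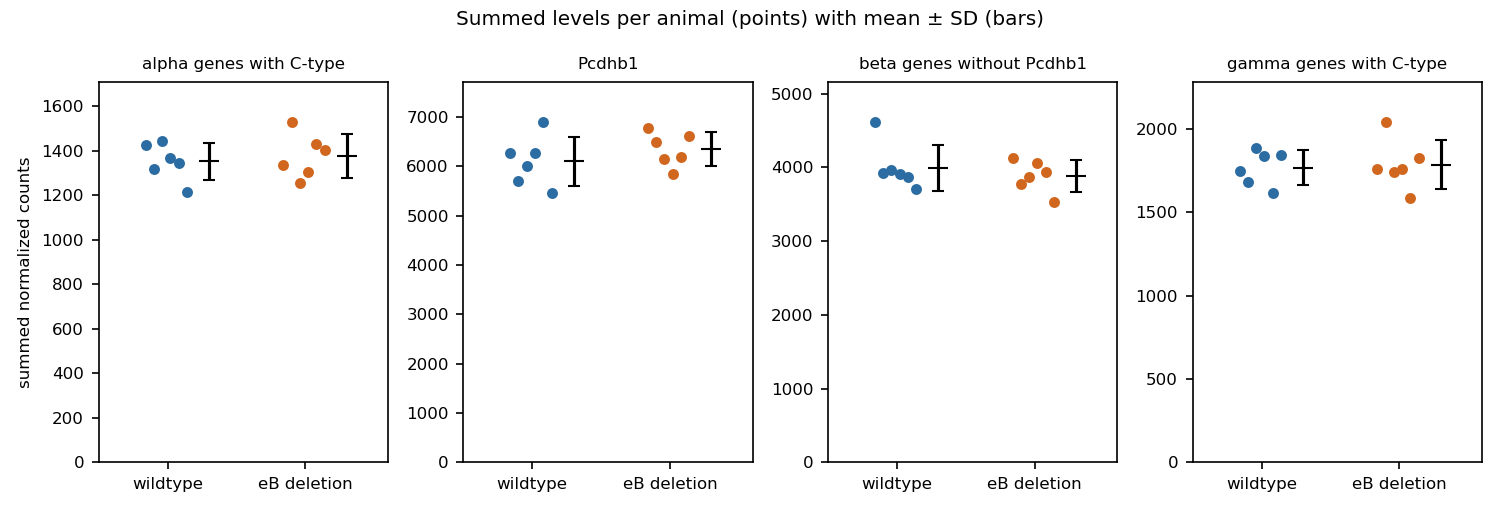
Summed normalized counts per animal of the alpha genes with their C-type genes, of Pcdhb1 alone, of the other beta genes, and of the gamma genes with their C-type genes, each with the mean ± SD (n = 6 per genotype). The 2 genotypes overlap in every panel, for example at 1,353 ± 83.0 and 1,377 ± 98.1 for the alpha cluster.

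Single genes were compared with limma-trend on log2(normalized count + 1), fitted over the 19,100 genes that reached 10 normalized counts in 6 or more animals. This kept 55 of the 57 members (Pcdha4 and Pcdha11 stayed below). After Benjamini-Hochberg adjustment over all genes tested, 0 of the 55 were called, with a smallest adjusted p of 0.754, and 0 of all 19,100 genes (0%) were called. At an unadjusted p under 0.05 there were 2 members (3.64%) against 1,078 of all genes (5.64%), a share near the background that differed between tests and sets of libraries. Of the 55, 31 had higher and 24 lower values in the deletion. Their median log2 fold change was 0.02, beside 0.00 over all genes. In 0 members did the 2 groups separate without overlap, against 56 of all genes (0.293%). edgeR's quasi-likelihood test on the recovered reads called 0 genes, with 4 members (7.27%) and 1,120 genes (5.86%) at an unadjusted p under 0.05. DESeq2 called 11 genes (0.0561%) and 0 members, with 3 of 57 members (5.26%) and 2.46% of 44,655 genes at an unadjusted p under 0.05, and in the authors' deposited table the smallest adjusted p of a member is 0.731. With limma, 5 members (9.09%) had an unadjusted p under 0.05 without the 2 libraries over 1% on Gm10800 (5.17% of all genes) and 5 (9.09%) without the 4 libraries over 0.1% (5.76%), again with 0 called. The members' share was thus below that of all genes in limma with all animals, and above it in edgeR and in limma without these libraries. The DESeq2 shares cannot be compared in this way. Its 44,655 genes include many low genes that the 19,100 leave out.

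The first of the 2 members with a small p was Pcdhgb2, a gamma B isoform. Its wildtype values were 81.7, 93.0 and 111 normalized counts (lowest, median and highest), and those in deletion animals were 108, 117 and 144. The groups overlapped at their edges. The log2 fold change was 0.34 ± 0.11 (SE, limma adjusted p = 0.754).

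The second was Pcdha9, the highest of the alpha genes. Its values were 156, 163 and 189 normalized counts in wildtype and 122, 138 and 166 in deletion animals, so the groups again overlapped. The log2 fold change was -0.25 ± 0.09 (SE, limma adjusted p = 0.816). Both are given as values, since neither passed over all genes.

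The next members by p had values in the same range. Pcdhb20 had 205 ± 19.0 normalized counts in the wildtype and 182 ± 12.1 in the deletion group (log2 fold change -0.17 ± 0.08), and Pcdhb17 had 548 ± 43.6 and 506 ± 26.6 (-0.11 ± 0.06). Pcdhgc4 had 29.5 ± 4.19 and 35.7 ± 4.77 (0.27 ± 0.15), and Pcdha8 had 28.2 ± 6.75 and 38.8 ± 14.7 (0.40 ± 0.24; counts with SD, n = 6 each, and fold changes with SE). Their limma adjusted p lay between 0.881 and 0.900.

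By family, the median log2 fold change was 0.09 over 10 alpha genes (7 higher), -0.01 over 22 beta genes (10 higher), 0.00 over 11 gamma A genes (5 higher), 0.08 over 7 gamma B genes (5 higher) and 0.02 over 5 C-type genes (4 higher). Pcdhb1 differed by 0.06 ± 0.06 (SE), with a 95% interval from -0.07 to 0.19. Pcdhac2 (0.02 ± 0.08), Pcdhgc3 (0.02 ± 0.09) and Pcdhac1 (0.04 ± 0.11) were likewise near 0. For 44 of the 55 tested members the 95% interval of the log2 fold change stayed within a 1.5-fold change in either direction. The widest interval was that of Pcdhgc5, whose lower bound was -0.999.

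**Figure D3:**
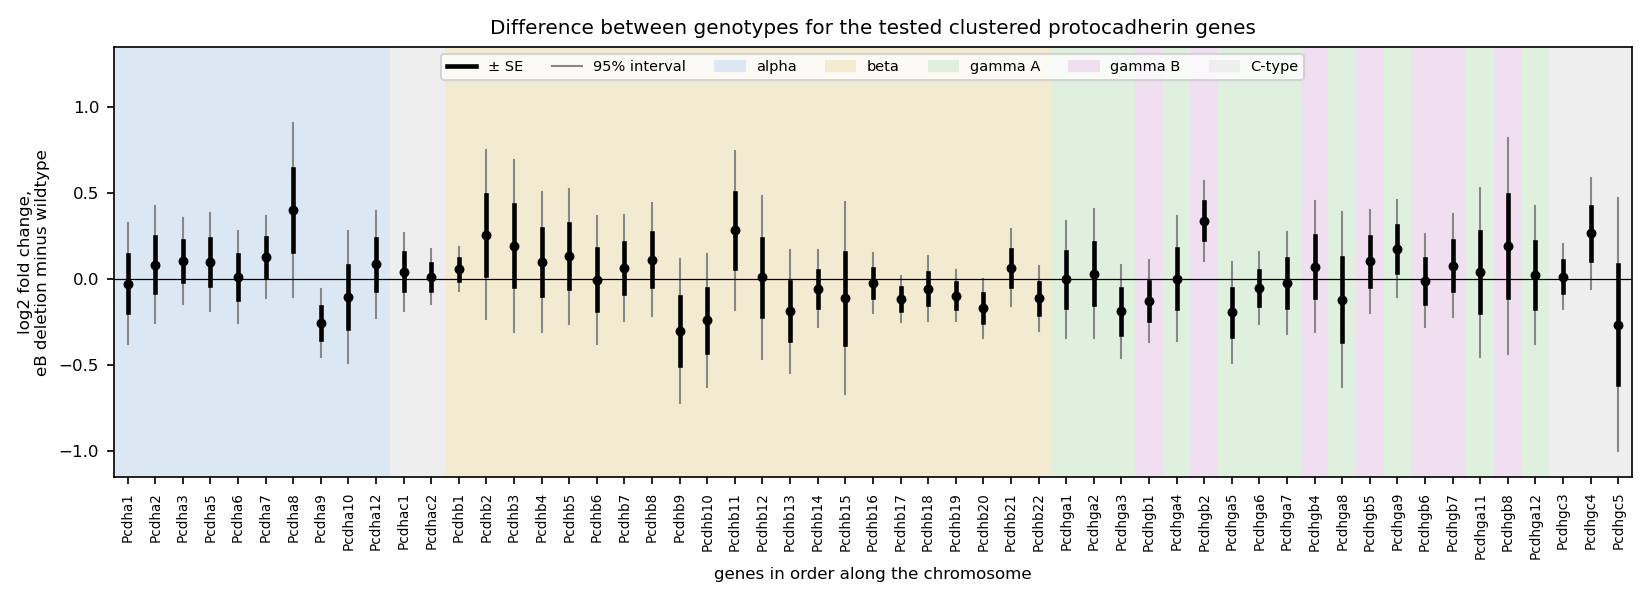
Log2 fold change of the eB deletion over wildtype for the 55 tested members in chromosomal order, with the SE (thick bars) and the 95% interval (thin bars), shaded by family. The intervals of Pcdhgb2 (0.34) and Pcdha9 (-0.25) leave out 0, and neither gene passed the adjustment over all genes.

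Pcdhgc5 varied widely in wildtype. Its values there were 5.36, 16.1 and 44.7 normalized counts (lowest, median and highest), with the lowest in wildtype 5 and the highest in wildtype 2. In deletion animals they were 9.10, 13.98 and 17.5. On the log2 scale, wildtype 2 deviated by 1.40 and wildtype 5 by -1.45 from the wildtype mean. Of the 9 brain markers, 6 were also at their highest of the 12 libraries in wildtype 2 (Slc32a1, Gad1, Gad2, Th, Tbr1 and Slc17a7, for example 43.3 for Gad1). Gfap and Aqp4 were highest in wildtype 1 and Eomes in eB deletion 2, and 5 libraries had a higher sum over the list than wildtype 2 (13,510). Aqp4 made up 12,979 of that sum and ranged from 11,070 to 15,403 over the 12 libraries, so the order of the sums mostly reflects Aqp4. The Gm10800 share of wildtype 2 was 11.02%. The log2 fold change of Pcdhgc5 was -0.26 ± 0.35 (SE) with all animals, 0.02 without wildtype 2 and -0.55 without wildtype 5. The part of brain RNA in this was not tested.

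Lists of related genes, chosen with earlier results of these data known, were read from the same fit. The 24 regulators of promoter choice and silencing included CTCF, cohesin subunits, SMCHD1 and DNA methyltransferases. Of these, 0 were called, 21 had higher and 3 lower values, and the median log2 fold change was 0.04. Over all genes tested, 9,872 had higher and 9,228 lower values. At an unadjusted limma p under 0.05 there was 1 regulator (4.17%), against 5.64% of all genes. Dnmt3b, a methyltransferase that sets methylation at protocadherin promoters, had 75.2 ± 11.2 normalized counts in the wildtype and 60.1 ± 6.13 in the deletion group (± SD, 6 animals each; log2 fold change -0.31 ± 0.13 SE, limma adjusted p = 0.850). Pds5b (0.11 ± 0.05) and Tet2 (0.10 ± 0.05) were next. The most abundant, the cohesin subunit gene Stag2 and Dnmt3a, differed by 0.04 ± 0.06 and 0.02 ± 0.06.

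The 20 intracellular and processing partners, such as the kinase FAK (Ptk2), the WAVE complex and the protease ADAM10, had 0 called. At an unadjusted limma p under 0.05 there were 0 of the 20, against 5.64% of all genes. Of the 20, 14 were higher and 6 lower, with a median of 0.01. Of the partners picked by p or by level, Wasf1 differed by 0.14 ± 0.16, Adam10 by 0.07 ± 0.07, Nckap1 by 0.06 ± 0.07 and Marcks by 0.01 ± 0.07. Among 12 nonclustered protocadherins, which are encoded by separate genes, 0 were called, 5 were higher and 7 lower, with a median of -0.01. At an unadjusted limma p under 0.05 there was 1 of the 12 (8.33%). Pcdh12, a protocadherin of blood vessel cells, had 46.2 ± 8.34 normalized counts in the wildtype and 32.7 ± 7.36 in the deletion group (log2 fold change -0.49 ± 0.17 SE, limma adjusted p = 0.788). Pcdh10 varied widely, with 1,031 ± 947 normalized counts in the wildtype and 1,323 ± 730 in the deletion group (± SD, 6 animals each; log2 fold change 0.52 ± 0.39 SE), while Pcdh11x differed by -0.10 ± 0.06, Pcdh7 by 0.02 ± 0.06 and Pcdh17 by 0.03 ± 0.06.

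The third result concerned differences among the animals within a genotype. The spread beyond counting error was expressed as the percent SD that remains after the error expected from the read number. Its median was 13.2% over the 55 tested members and 8.69% over all genes, but 6.79% over the 5 C-type genes. Among genes with a mean of 50 to 500, the median was 13.0% for members and 9.47% for all genes. In that range 11 of 40 members (27.5%) exceeded 20%, against 717 of 7,554 genes (9.49%). These 11 were Pcdha2, Pcdha10, Pcdhb3, Pcdhb4, Pcdhb5, Pcdhb6, Pcdhb7, Pcdhb9, Pcdhb11, Pcdhgb4 and Pcdhgb8. The highest of the 12 animals was 4.18 times the lowest for Pcdhgb8, 3.33 times for Pcdhb3, 2.96 times for Pcdhb11 and 2.93 times for Pcdhb9, but 1.26 times for Pcdhb1 and Pcdhb17. The lowest value of Pcdhgb8, Pcdhb3 and Pcdhb11 was that of wildtype 5. Without this animal, left out after the values were seen, the ratios were 2.43 for Pcdhgb8, 2.14 for Pcdhb3, 2.39 for Pcdhb11 and 2.21 for Pcdhb9.

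Several of these genes shared the same animals as extremes. Pcdhb3 had 128 normalized counts in wildtype 1, 91.9 in wildtype 4 and 125 in eB deletion 4, but 38.4 in wildtype 5. Pcdhb7 had 429 in wildtype 1 and 183 in wildtype 5, and Pcdhb11 had 440 and 149. Pcdhgb8, which starts 461 kb away in the gamma cluster, had 127 in wildtype 1 and 30.4 in wildtype 5. Pcdhb9 ran the other way, with 197 in wildtype 1, 127 in eB deletion 4 and 372 in wildtype 5. For Pcdhb7 the deletion animals, at 262 to 337, lay inside the wildtype range, and for Pcdhb11 their lowest value was 250, so the lowest values of both genes were those of wildtype animals. The sum of Pcdhb2 to Pcdhb8 ranged from 491 in wildtype 5 to 1,036 in wildtype 1.

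**Figure D4:**
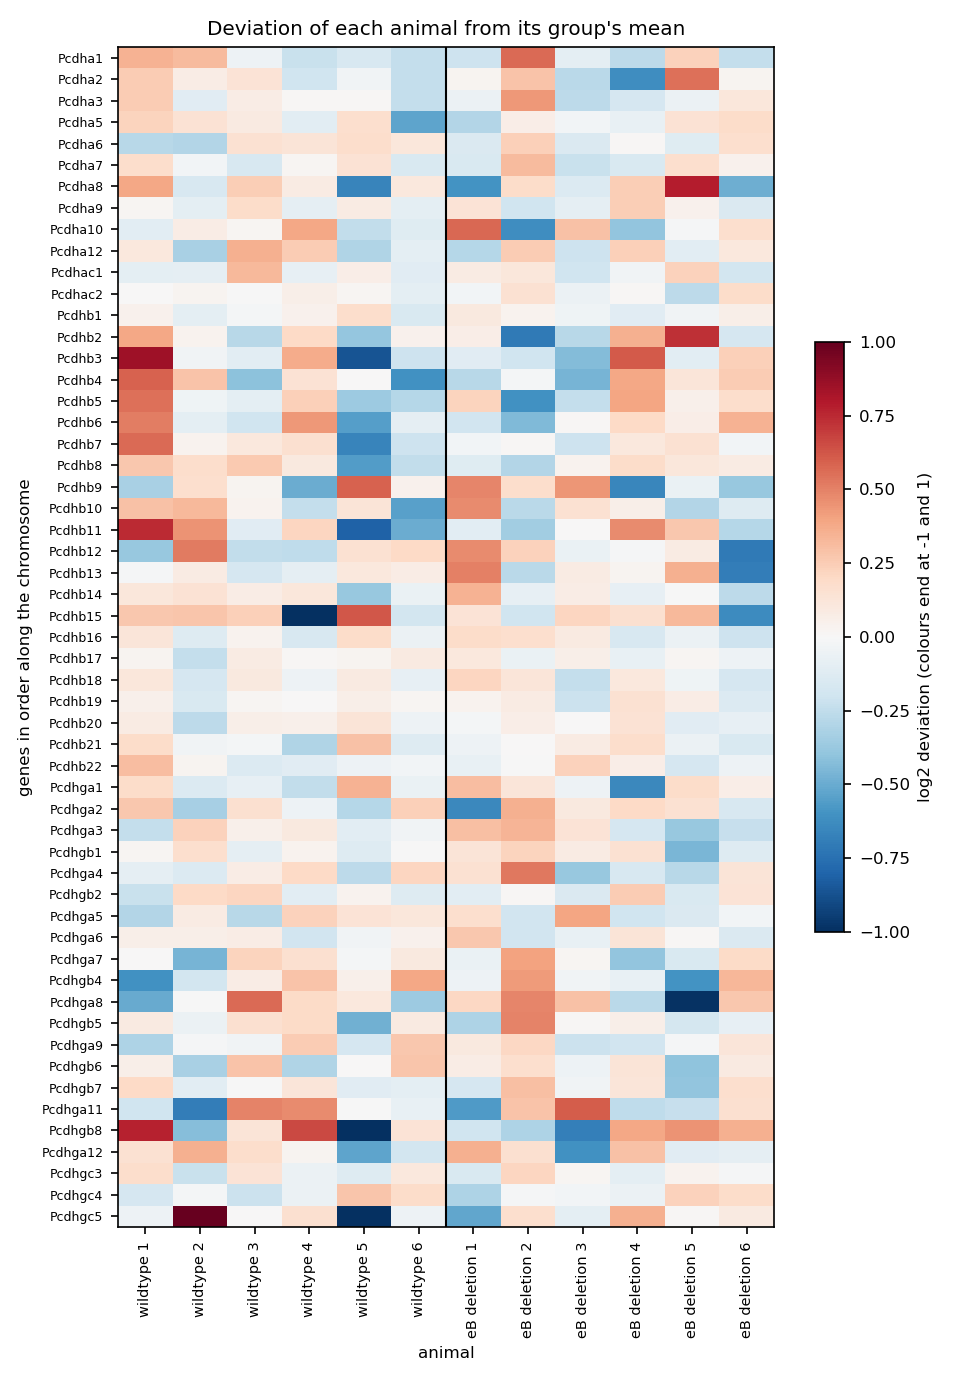
Deviation of each animal from the mean of its genotype (log2, red above and blue below) for the 55 tested members in chromosomal order. A block from Pcdhb3 to Pcdhb8, with Pcdhb11 and Pcdhgb8, is red in wildtype 1 and mostly blue in wildtype 5, and Pcdhb9 has the opposite colours.

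This pattern was noticed in the data and then described with a fit chosen afterwards, in which the log2 level of Pcdhb3 was added to genotype as a covariate and each of the other 19,099 genes was tested with limma. The slope is the log2 change of a gene per log2 unit of Pcdhb3. The 6 genes of smallest p were all clustered protocadherins. They were Pcdhgb8 (slope 1.118 ± 0.20), Pcdhb9 (-0.75 ± 0.13), Pcdhb7 (0.54 ± 0.10), Pcdhb11 (0.76 ± 0.17), Pcdhb6 (0.61 ± 0.14) and Pcdhb5 (0.61 ± 0.15; all SE). None passed the adjustment, with 0 of 19,099 genes called (0%) and a smallest limma adjusted p of 0.403. At an unadjusted p under 0.05 there were 8 of 54 members (14.8%) and 268 of all genes (1.4%).

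The same fit was made with each of the 55 members in turn. Another member was the first gene for 7 of them, 6 had at least 3 members among their first 10 genes, and 45 had 0. Pcdhb3 had the most of the 55, with 6, followed by Pcdhb6 with 5 and Pcdhgb8 with 4. Pcdhb3 was chosen after the values were seen, so its ranks and shares describe the pattern and do not test it. Genes were called for 4 of the 55, namely 5 for Pcdha3, 1 for Pcdhb12, 7 for Pcdhb13 and 5 for Pcdhgb1, and for each of these the first gene was no member and 0 members were among the first 10. The ranks depended on some libraries. Without wildtype 1 or without wildtype 5, 2 members were among the first 10 genes for Pcdhb3 in place of 6, and without the 4 libraries over 0.1% on Gm10800, which include wildtype 5 and eB deletion 4, there was 1 (Pcdhb4, not one of the 6). The slopes of Pcdhgb8 (0.91 to 1.24) and Pcdhb9 (-0.95 to -0.67) kept their direction when each animal was left out in turn. Windows of 50 bases that also occur in another gene made up 9.18% for Pcdhgb8, 8.75% for Pcdhb9 and 9.52% for Pcdhb11. They made up 2.89% for Pcdhb3 itself, 3.35% for Pcdhb4, 5.22% for Pcdhb5, 7.64% for Pcdhb6, 8.57% for Pcdhb7 and 5.88% for Pcdhb8. The other gene can be any gene, not only one of these members. The part of shared reads, of the mixed strain background or of other cells in this pattern was not tested.

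**Figure D5:**
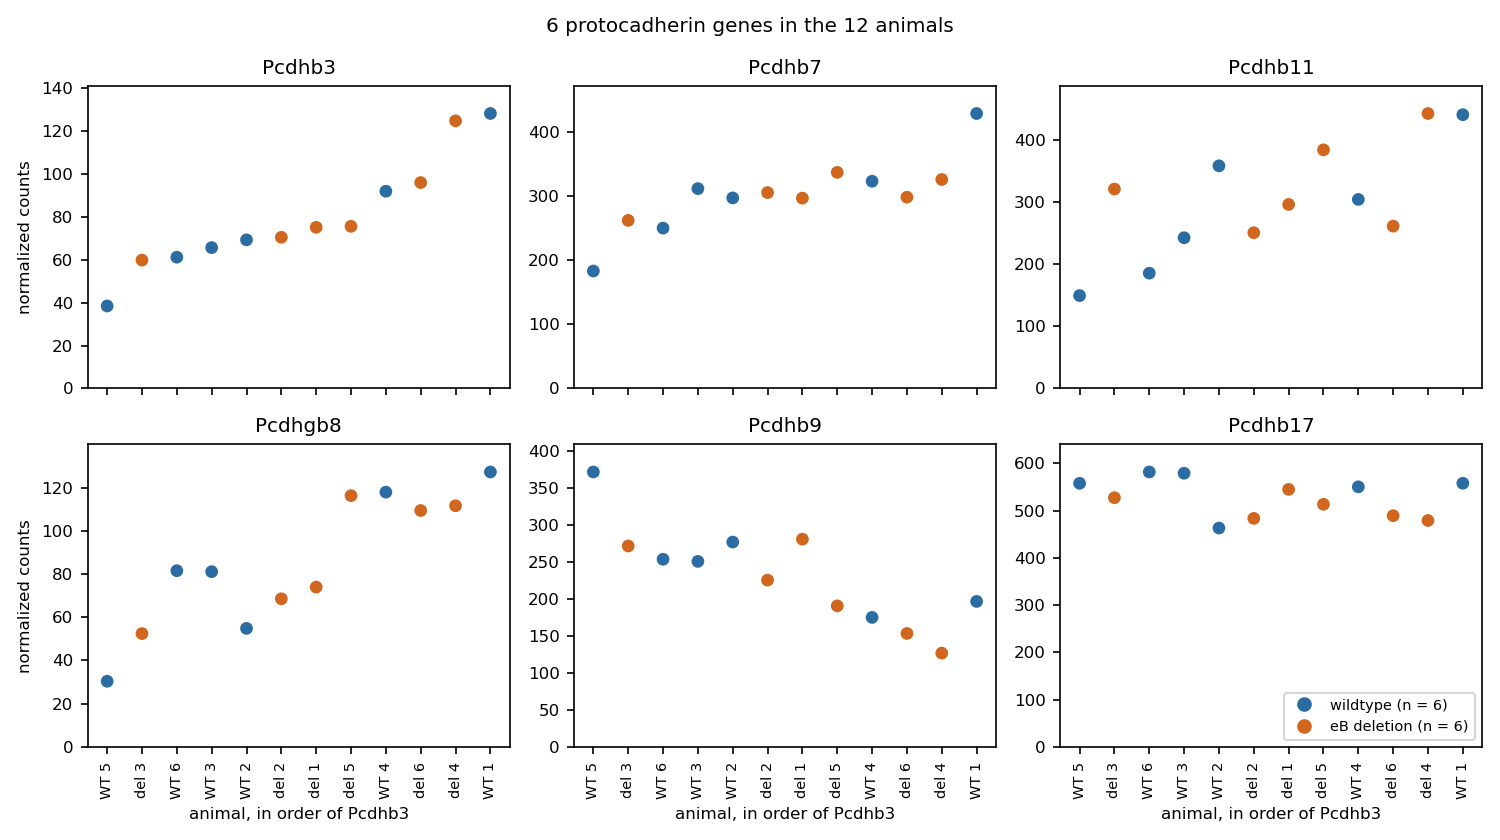
Normalized counts of 6 beta and gamma isoforms in the 12 animals, ordered from the lowest to the highest Pcdhb3 (wildtype in blue, eB deletion in orange). Pcdhb7, Pcdhb11 and Pcdhgb8 tend to be higher towards the right, Pcdhb9 goes from 372 in wildtype 5 at the left to 127 in eB deletion 4 and 197 in wildtype 1 at the right, and Pcdhb17 stays between 463 and 582.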

How the data were processed

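The authors deposited a signal, normalized counts by gene: they divided gene reads by 1 size factor per library, as the values show (100% of nonzero values were whole multiples of 1 read, relative tolerance 0.001). The submitters' processing notes name STAR 2.6.0, DESeq2 and GRCm38.p6, with no counting tool. The log2 fold change, its standard error, the score (test statistic), the p-value and the adjusted p-value in the authors' deposited table are their own. The log2 values are shrunken and positive where wildtype is higher. Limma-trend 3.58.1 (R 4.3.3) was fitted to log2(value + 1) with genes kept at 10 or more in 6 or more samples, no covariates and a threshold of 0.05. The scale understates changes of low genes. Whole reads recovered from the values went to edgeR 4.0.16 and DESeq2 1.42.0. Exon lengths came from GENCODE M21, where the identifiers of all 57 members matched with their versions. Levels and plots were made in Python 3.11.15 with matplotlib 3.10.9 and pandas 2.3.3. The procedures were also tested on simulated data.

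The members and the lists were chosen with earlier results of these data known. Named members are the C-type isoforms, the 2 highest and 2 lowest per kb of each family, any called gene and the 3 of smallest p in each direction. From each list, the 3 of smallest p and the 2 of highest mean are named. The genes of the covariate fit and Pcdhb7, Pcdhb16 and Pcdhb9 were named after their values were seen. Libraries of 1 group differed by a chi-square of at least 12.9 per degree of freedom, so none were duplicates. Labels name separate samples, which are read here as separate animals, and on that reading p-values measure the spread between animals.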

Additional observations from a re-analysis of the deposited data

Results flagged for a closer look

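In 4 of 120 groups of 6 animals, 1 value lay far from the other 5, and chance alone flags about 1 in 20, or 6. The groups were the tested members on the log2 scale and the family sums on the untransformed scale. All 4 were groups of single members. Pcdhb17 in wildtype had 463 normalized counts in wildtype 2, with the nearest animal at 550.3. Pcdhb19 in wildtype had 339 in wildtype 2, with the nearest at 377. Pcdhga7 in wildtype had 82.2 in wildtype 2, with the nearest at 113. Pcdhb22 in wildtype had 298 in wildtype 1, with the nearest at 245. In 3 of the 4 the low library was wildtype 2, whose Gm10800 share was 11.02%, and the part of that share in the low values was not tested.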

How the results depend on the processing

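No clustered protocadherin was called under any alternative run. Over all genes, DESeq2 called 11, and leaving out each animal in turn gave 0 to 1 (1 without wildtype 6). Members at an unadjusted p under 0.05 numbered 4 with edgeR, 3 with DESeq2 and 5 both without the 2 libraries over 1% on Gm10800 (5.17% of all genes) and without the 4 libraries over 0.1% (5.76%), and 2 to 4 when each animal was left out. The median log2 fold change of the members was -0.02 without eB deletion 2 and -0.01 without the 4 libraries. The shared replicate numbers do not pair the animals (correlations of same-numbered animals -0.12 to 0.16, and 1 of 12 animals correlated best with its own number); with the replicate number as a block, 0 members were called and 2 had an unadjusted p under 0.05.

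Of 36 named genes with a fold change, 24 kept its direction under every alternative run. Pcdhgb6 turned to 0.00693 with TMM. Without the 2 libraries, Pcdhgc3 turned to -0.00950, Pcdhga11 to -0.0462, Pcdh7 to -0.00995, Marcks to -0.0559 and Dnmt3a to -0.0310. Without the 4 libraries, Pcdhgc3 turned to -0.00948, Pcdhga12 to -0.18, Pcdh17 to -0.0249, Marcks to -0.0451 and Dnmt3a to -0.00147. When each animal was left out, log2 fold changes ranged from -0.0838 to 0.15 for Pcdhb12, -0.0977 to 0.15 for Pcdhga11, -0.0801 to 0.15 for Pcdhga12, -0.0720 to 0.0726 for Pcdhgb6, -0.0295 to 0.05001 for Pcdhgc3, -0.55 to 0.0154 for Pcdhgc5, -0.00239 to 0.11 for Pcdhac1, -0.0219 to 0.0680 for Pcdhac2, -0.0311 to 0.0559 for Pcdh7, -0.00848 to 0.0583 for Pcdh17, -0.0475 to 0.0455 for Marcks and -0.0263 to 0.0449 for Dnmt3a. The cause was not tested. Per kb of all exons, Pcdha8 ranked 10 of the 12 alpha genes in place of 11, with Pcdha4 below it. Depth limits the lowest isoforms, such as Pcdhgc5 with 6 reads in its lowest library.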
